A study of Mus musculus with 14 samples.

Results

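Red cell RNA was followed through 9 genes of hemoglobin production in mouse blood: the adult alpha globins Hba-a1 and Hba-a2, the adult beta globins Hbb-bt and Hbb-b2, the embryonic beta-like globin Hbb-y, the heme synthesis enzymes Alas2 and Fech, the alpha chain chaperone Ahsp and the mutase Bpgm. Members were found by matching the RefSeq identifier of each non-control probe to these symbols. The matching used no measured values, but the genes were chosen with earlier results of these data known. A named probe was present for 8 of the 9 genes, 9 probes in all of the 55681 on the array, and all 8 were bright enough to be tested among 11497 genes. Ahsp was not analysed here.

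The SS group held 8 mice that lived in a hostile social environment in the third week after birth, 4 labelled female and 4 labelled male. The SI group held 6 mice that were kept in social isolation as juveniles, 2 labelled female and 4 labelled male. All 14 mice received cocaine at 5 mg/kg, a dose below the threshold for place preference, went through extinction and withdrawal, and gave blood 24 hours later, so every group shares the drug and no mouse was free of both stresses. The labels name a mouse for each array and give neither strain nor age. SS labelled male mice 1 and 01b are counted as separate mice, which their labels do not settle. Blood came from a sub-mandibular puncture, was kept from clotting with EDTA and was treated with a red cell lysis buffer, no gradient or sort is named, and the RNA of the remaining cells was hybridised with Cy3 to one-colour arrays.

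Reticulocytes are the youngest circulating red cells. They have lost the nucleus but keep RNA for a while, nearly all of it for globins, heme synthesis and the red cell membrane, and they finish filling the cell with hemoglobin from that store. Each hemoglobin carries alpha and beta chains with a heme group apiece; Alas2 starts heme synthesis in the mitochondrion of red cell precursors and Fech ends it by inserting iron. Lysis buffers are meant to remove red cells, so globin RNA in such a sample reads what is left of them. In bulk RNA, fewer reticulocytes and less RNA per reticulocyte cannot be told apart.

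Levels are given as scaled log2 intensity, where a step of 1 is a 2-fold change; arrays were brought to 1 common 75th percentile, taken over the 14522 probes detected well above background everywhere. The number of arrays limits the precision. All 6 labelled female arrays lay on 1 slide and all 8 labelled male arrays on the other, so slide and sex label cannot be told apart; SI arrays filled columns 1 and 2 and SS arrays columns 3 and 4, so stress group and column cannot be told apart either. The Y-linked genes Eif2s3y and Ddx3y were clearly detected on all 6 arrays labelled female and on 0 of the 8 labelled male, which goes against the sex labels, and "labelled" is kept throughout for that reason. Array brightness, the median log2 departure from the mean array, was lowest on SI labelled male mouse 4 (-1.06) and highest on SI labelled male mouse 7 (1.06). Calls that change without either array are given with and without it. Red cell markers were detected: 20 of 23 membrane genes and 24 of 26 genes of late red cell maturation were measured. Measured means well above background on 6 or more arrays. Some were not detected in every group, such as Ank1 and Dmtn in SS labelled females.

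Promoters of 5 members are printed because the members' levels moved together across mice to different degrees. Whether the motifs have a part in that was not tested. Each is the 200 bases before the transcript start on the coding strand, from RefSeq on GRCm38.p6. Capitals mark 4 motifs searched on both strands: the GATA site in the forms AGATAA and AGATAG or the same with T as first base, the CACCC box, the CCAAT box and the TATAA box. No hits of different motifs overlapped. The windows are chr11:32283472-32283671 (+) for Hba-a1, chr7:103813924-103814123 (-) for Hbb-bt, chr7:103853208-103853407 (-) for Hbb-y, chrX:150547217-150547416 (+) for Alas2 and chr6:34476156-34476355 (+) for Bpgm.
Hba-a1: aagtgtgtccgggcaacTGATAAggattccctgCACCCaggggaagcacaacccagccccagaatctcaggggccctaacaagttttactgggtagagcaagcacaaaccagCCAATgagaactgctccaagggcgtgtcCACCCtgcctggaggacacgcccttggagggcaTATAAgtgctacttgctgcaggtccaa
Hbb-bt: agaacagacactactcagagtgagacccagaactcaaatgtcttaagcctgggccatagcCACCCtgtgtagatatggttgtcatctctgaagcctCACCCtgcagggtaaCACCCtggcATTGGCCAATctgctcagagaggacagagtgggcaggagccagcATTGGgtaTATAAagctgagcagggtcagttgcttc
Hbb-y: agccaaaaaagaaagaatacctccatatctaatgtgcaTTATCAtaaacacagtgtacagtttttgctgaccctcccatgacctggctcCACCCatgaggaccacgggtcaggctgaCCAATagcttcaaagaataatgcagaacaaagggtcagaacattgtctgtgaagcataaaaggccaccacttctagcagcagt
Alas2: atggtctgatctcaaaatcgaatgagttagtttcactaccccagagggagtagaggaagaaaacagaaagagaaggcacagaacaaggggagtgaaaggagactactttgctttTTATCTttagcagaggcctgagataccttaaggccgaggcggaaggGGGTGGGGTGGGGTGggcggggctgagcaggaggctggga
Bpgm: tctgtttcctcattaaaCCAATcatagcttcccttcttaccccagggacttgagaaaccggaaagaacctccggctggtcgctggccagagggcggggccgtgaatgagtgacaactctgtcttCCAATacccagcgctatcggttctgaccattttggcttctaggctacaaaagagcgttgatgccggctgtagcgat

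The Hba-a1 window held 1 GATA, 2 CACCC, 1 CCAAT and 1 TATAA match, and in longer windows of 300 bases around the starts, Hba-a1 and Hba-a2 share a run of 297 bases. Hbb-bt held 3 CACCC, 3 CCAAT and 1 TATAA match with no GATA, while Hbb-y held 1 GATA, 1 CACCC and 1 CCAAT. Alas2, an X-linked gene, held 1 GATA and 3 CACCC matches, all on the opposite strand. Bpgm held 2 CCAAT matches and none of the other motifs. Among 32851 windows of the same length, 21.4% held a GATA site, 45.5% a CACCC, 29.3% a CCAAT and 18.5% a TATAA. A match describes letters in the window and not a bound site.

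Of the alpha chain genes, Hba-a1 was the brightest probe on every array and Hba-a2 ranked between 2 and 6. Hba-a1 read 18.60, 18.60, 17.72 and 18.60 in SS labelled female mice 20, 21, 22 and 23, against 18.69 and 19.43 in SI labelled female mice 27 and 28. In labelled males it read 18.57, 18.82, 17.99 and 19.04 in SS mice 1, 2, 3 and 01b, against 19.57, 18.18, 17.90 and 17.55 in SI mice 4, 5, 6 and 7. The SS values lie below both SI values in labelled females and inside the SI range in labelled males. Hba-a2 read 17.88, 17.91, 17.30 and 18.05 in SS labelled females, against 18.03 and 18.69 in SI labelled females. Its labelled male values were 18.01, 18.21, 17.56 and 18.38 in SS mice, against 18.84, 17.53, 17.25 and 17.01 in SI mice. Groups overlapped for Hba-a2 on both slides. Because the genes encode the same chain and are nearly identical, signal on either probe may come from both copies.

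Before scaling, the alpha globin spots hardly differed between arrays. Hba-a1 was the brightest of the 55681 probes on every array, and its unscaled intensity spanned 1.40-fold over the 14 arrays. Hba-a2 ranked between 2 and 6 and spanned 1.27-fold. The SD within groups was 0.08 log2 for Hba-a1 unscaled and 0.62 scaled, and 0.04 unscaled and 0.54 scaled for Hba-a2. The scale shift added to an array was highest for SI labelled female mouse 28 (0.90) and SI labelled male mouse 4 (0.86), the arrays with the highest scaled Hba-a1, and lowest for SI labelled male mouse 7 (-1.01), the array with the lowest. No spot was marked saturated; the brightest probe of an array reached between 37.1% and 51.7% of the scanner's saturation value. Whether these probes still respond to more RNA at this brightness was not tested.

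**Figure D1:**
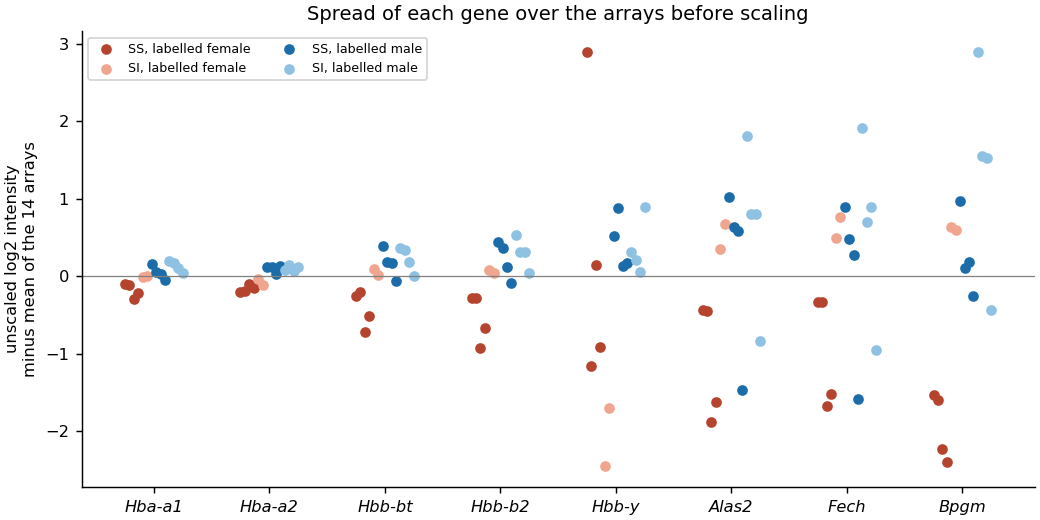
Unscaled log2 intensity of each measured gene, as the departure from its mean over the 14 arrays (y axis), with each point an array and colours for the 4 groups. Hba-a1 and Hba-a2 stay within a narrow band (1.40-fold and 1.27-fold from lowest to highest), while Alas2, Fech and Bpgm span 13-fold, 12.1-fold and 39.1-fold.

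The beta chain genes followed the alpha genes with a wider spread. Hbb-bt read 17.73, 17.79, 16.58 and 17.59 in SS labelled females, against 18.06 and 18.72 in SI labelled females. In labelled males it read 17.98, 18.24, 17.25 and 18.55 in SS mice, against 19.03, 17.63, 17.25 and 16.79 in SI mice. All 4 SS labelled females were below both SI labelled females, and the labelled male groups overlapped. Hbb-b2 read 17.46, 17.46, 16.12 and 17.19 in SS labelled females, against 17.80 and 18.49 in SI labelled females. Labelled male values of Hbb-b2 were 17.91, 17.94, 16.98 and 18.35 in SS mice, against 18.93, 17.34, 17.14 and 16.59 in SI mice. Its groups stood as for Hbb-bt: apart in labelled females and overlapping in labelled males. Unscaled, Hbb-bt spanned 2.16-fold and ranked between 2 and 17, and Hbb-b2 spanned 2.74-fold and ranked between 4 and 42. The adult beta genes are close copies of each other, so the share of each probe's signal that comes from its own gene is uncertain.

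Within an array, the log2 offset of one gene from another is free of the scaling. Hba-a2 minus Hba-a1 varied over 0.31 log2 and Hbb-b2 minus Hbb-bt over 0.38 among the 14 arrays. Hbb-bt minus Hba-a1 varied over 0.66 and was -0.96 ± 0.15 (SD, n = 4) in SS labelled females and -0.67 ± 0.06 (SD, n = 2) in SI labelled females. The offset was -0.60 ± 0.11 (n = 4) in SS labelled males and -0.62 ± 0.10 (n = 4) in SI labelled males. All 4 SS labelled females, at -0.81 or less, lay below the other 10 arrays. The offset of 2 probes has no meaning as a ratio of transcripts. Its change between arrays reads a change of that ratio only where both probes respond alike to RNA, which was not tested.

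Hbb-y, a globin of embryonic red cells, was near background. Its tested probe was well above background on 6 of 14 arrays: 2 of 4 SS labelled females, 0 of 2 SI labelled females, 2 of 4 SS labelled males and 2 of 4 SI labelled males. It read 6.76, 2.72, 3.33 and 3.08 in SS labelled females, against 1.40 and 2.88 in SI labelled females. In labelled males the values were 4.56, 4.09, 3.37 and 4.56 in SS mice, against 4.85, 3.37, 3.01 and 3.57 in SI mice. A single array, SS labelled female mouse 20, accounts for the highest value, and its 2nd Hbb-y probe read 1.77 and was not well above background there. Means were 3.97 in SS labelled females and 2.14 in SI labelled females, a difference of 1.83 that did not pass (limma adjusted p = 0.372), and without mouse 20 the difference was 0.90 (adjusted p = 0.528). The 2nd probe was well above background on 2 arrays only, SS labelled female mouse 22 and SI labelled male mouse 4, and was not tested.

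Alas2, the erythroid 5-aminolevulinate synthase, varied far more than the adult globins. It read 15.58, 15.58, 13.44 and 14.52 in SS labelled females, against 16.36 and 17.41 in SI labelled females. In labelled males it read 16.46, 16.69, 13.88 and 17.21 in SS mice, against 18.50, 16.12, 15.91 and 13.99 in SI mice. Every SS labelled female was below both SI labelled females. Mouse 3 was the low SS labelled male, and mice 4 and 7 set the ends of the SI labelled male range. From the lowest, group means were 14.78 ± 1.02 in SS labelled females (SD, n = 4), 16.06 ± 1.48 in SS labelled males (n = 4), 16.13 ± 1.85 in SI labelled males (n = 4) and 16.88 ± 0.75 in SI labelled females (n = 2), and each pair of neighbours differed by less than the larger of their SDs.

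Fech, ferrochelatase, repeated the pattern of Alas2 mouse by mouse. It read 14.34, 14.36, 12.32 and 13.28 in SS labelled females, against 15.16 and 16.17 in SI labelled females. In labelled males the values were 14.98, 15.05, 12.43 and 15.74 in SS mice, against 17.28, 14.68, 14.66 and 12.54 in SI mice. The same mice were at the ends of each group as for Alas2. Fech minus Alas2 within an array varied over only 0.51 log2 (SD 0.15, n = 14), although Alas2 and Fech spanned 13-fold and 12.1-fold unscaled. The offset was -1.2 ± 0.06 (n = 4) in SS labelled females, -1.22 ± 0.03 (n = 2) in SI labelled females, -1.51 ± 0.08 (n = 4) in SS labelled males and -1.34 ± 0.12 (n = 4) in SI labelled males. The SS labelled males, between -1.63 and -1.46, lay below all other arrays, the nearest being SI labelled male mouse 7 at -1.45. The slides overlapped through SI labelled male mouse 4 at -1.23.

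Bpgm makes the bisphosphoglycerate that lowers the oxygen affinity of hemoglobin, and it had the widest range of the members detected on all 14 arrays, 39.1-fold unscaled. It read 9.76, 9.71, 8.39 and 9.03 in SS labelled females, against 11.92 and 12.62 in SI labelled females. In labelled males it read 11.21, 11.57, 10.38 and 12.45 in SS mice, against 14.87, 12.15, 11.92 and 9.67 in SI mice. The SS labelled females lay more than 2 log2 units below the SI labelled females with no overlap, and the only labelled male in their range was SI mouse 7. Bpgm minus Alas2 was -5.56 ± 0.38 (n = 4) in SS labelled females and -4.62 ± 0.25 (n = 2) in SI labelled females, again without overlap. In labelled males that offset was -4.66 ± 0.79 (n = 4) in SS mice and -3.98 ± 0.28 (n = 4) in SI mice, and the groups overlapped through SS mouse 3 at -3.51. SS labelled male mice 1 and 2, at -5.25 and -5.12, lay within the range of the SS labelled females.

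**Figure D2:**
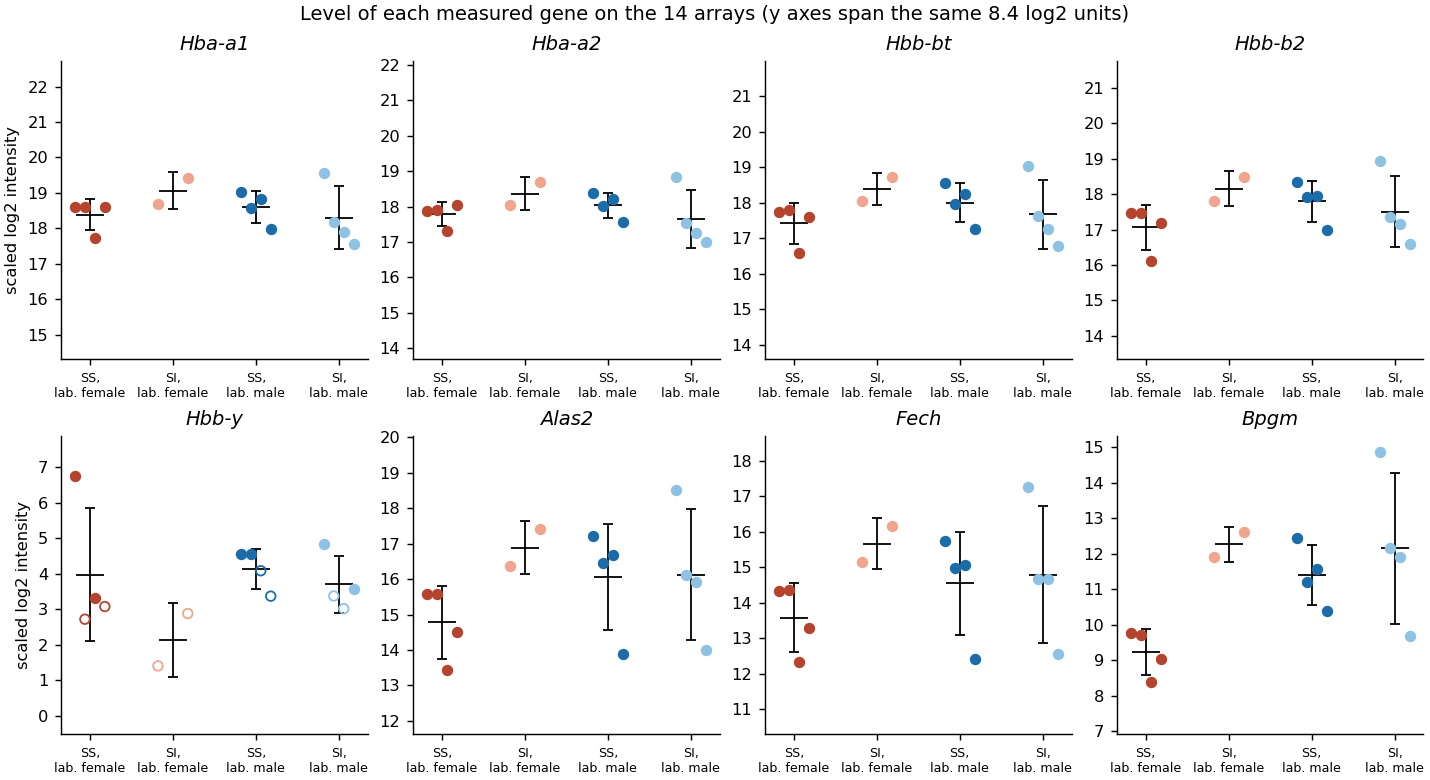
Scaled log2 intensity (y axis) of the 8 measured genes on the 14 arrays by group (x axis), with every y axis spanning the same width; points are arrays, open points are not well above background, bars are the mean and SD. SS labelled females lie below SI labelled females in every panel but Hba-a2 and Hbb-y, and the labelled male groups overlap in every panel.

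SS mice were compared with SI mice first over all 14 mice, with the slide as a block. No member passed at an adjusted p of 0.05 (limma, Benjamini-Hochberg over 24033 probes), where 9.57% of the 11497 genes passed, 8.61% higher and 0.957% lower in SS. The difference of Alas2 was -0.88 ± 0.72 log2 (SE, 95% interval -2.43 to 0.67, adjusted p = 0.512) and that of Fech -0.98 ± 0.72 (adjusted p = 0.463). The adult alpha globins Hba-a1 and Hba-a2 differed by -0.09 and 0.00 and the beta globins Hbb-b2 and Hbb-bt by -0.26 and -0.19, with adjusted p between 0.741 and 1.000. Bpgm had the largest difference, -1.67 ± 0.69 (95% interval -3.14 to -0.19, limma adjusted p = 0.182), and was the only member with an unadjusted p under 0.05, as 2743 of all genes had. Without SI labelled male mouse 7, the low member of its group, the Bpgm difference was -2.22 and passed (adjusted p = 0.019). Without SI labelled male mouse 4, the differences of Hba-a1 and Hbb-bt turned positive, to 0.11 and 0.016, and that of Bpgm was -1.25. The median difference of the 8 members was -0.22, beside -0.14 over all genes tested.

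**Figure D3:**
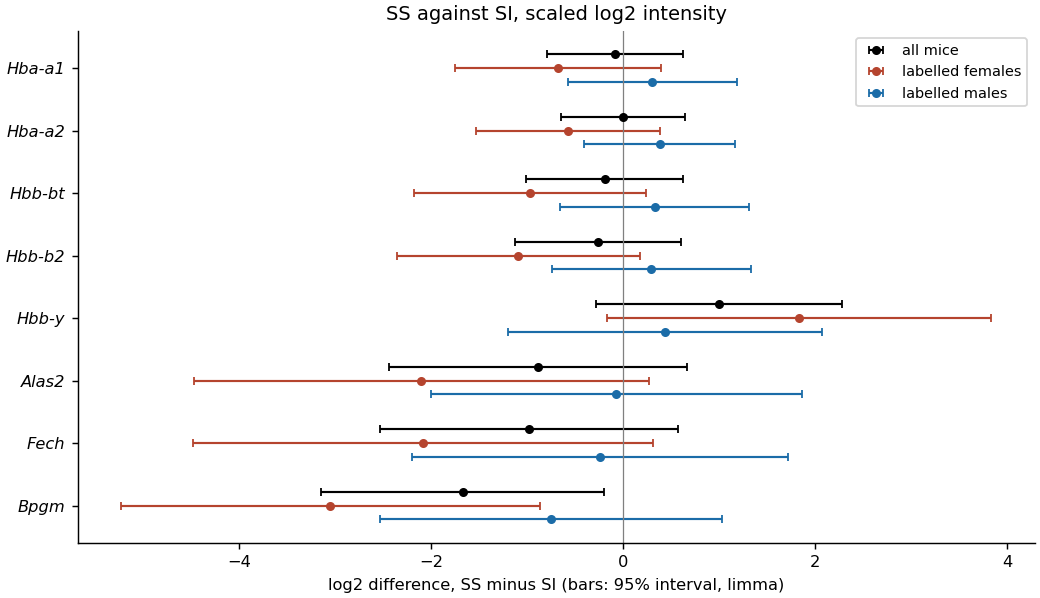
Log2 difference, SS minus SI (x axis), of each measured gene with its 95% interval from limma, over all mice, within labelled females and within labelled males. All intervals include 0 except those of Bpgm over all mice (-1.67) and within labelled females (-3.05), and neither passes after adjustment.

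Within labelled females, 7 of the 8 members had lower means in 4 SS mice than in 2 SI mice, and none passed, where 4.95% of genes did (3.93% higher and 1.02% lower). Bpgm differed by -3.05 ± 1.01 (95% interval -5.23 to -0.87, limma adjusted p = 0.121), a ratio of SS over SI of 0.121. Alas2 differed by -2.10 ± 1.10 (adjusted p = 0.391) and Fech by -2.09 ± 1.11 (adjusted p = 0.401), ratios of 0.233 and 0.235. The adult globins differed by less: -1.09 and -0.97 for Hbb-b2 and Hbb-bt, and -0.67 and -0.57 for Hba-a1 and Hba-a2 (limma adjusted p between 0.411 and 0.612). The groups did not overlap for 6 of the 8 members, all lower in SS; 19.6% of all genes were lower in SS without overlap in this comparison of 4 against 2. The median of the members was -1.03, beside -0.07 over all genes tested. Bpgm alone had an unadjusted p under 0.05, as 1998 of all genes had. Without SI labelled male mouse 4, which changes only the shared estimate of spread here, Bpgm passed at the same difference (adjusted p = 0.023).

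The scaling adds 1 amount to every gene of an array, and that amount differed between the groups. The scale shift differed by -0.49 log2 between SS and SI labelled females, by 0.38 between SS and SI labelled males and by 0.03 over all mice. Unscaled, the differences in labelled females were -2.56 for Bpgm (adjusted p = 0.053), -1.61 for Alas2, -1.60 for Fech, -0.60 and -0.48 for Hbb-b2 and Hbb-bt, and -0.18 and -0.08 for Hba-a1 and Hba-a2. Unscaled Hbb-y differed by 2.32.

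Within labelled males the member groups overlapped for all 8 genes, where 10.3% of all genes had groups that did not overlap in either direction. None of the 11497 genes passed (0%) in limma, although 2638 had an unadjusted p under 0.05, none of them a member. Differences were positive for the globins, 0.31 and 0.38 for the alpha genes Hba-a1 and Hba-a2, 0.29 and 0.33 for the beta genes Hbb-b2 and Hbb-bt and 0.44 for Hbb-y, and negative for Alas2 (-0.07, 95% interval -2.0 to 1.87), Fech (-0.24) and Bpgm (-0.75, 95% interval -2.53 to 1.03), with adjusted p between 0.502 and 0.966. Their median was 0.30, beside -0.15 over all genes. The scale shift of 0.38 between these groups is about as large as the globin differences: unscaled, Hbb-b2 differed by -0.09, Hba-a1 by -0.08, Hbb-bt by -0.05, Hba-a2 by 0.00 and Hbb-y by 0.06. The positive directions of the adult globins here were therefore not kept without scaling. SI mouse 4, the dimmest labelled male array, was the highest labelled male for all 8 members. Without it, 9424 probes passed where 0 had, and Hba-a2 rose in SS by 0.78 (limma adjusted p = 0.036). Alas2, Fech and Bpgm then differed by 0.72, 0.59 and 0.16 and did not pass.

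The difference between the slides was tested directly as an interaction, labelled females minus labelled males. No member passed, where 0.0609% of genes did (7 genes; 1105 had an unadjusted p under 0.05, no member among them). The interaction was -2.30 ± 1.30 for Bpgm, -2.03 ± 1.42 for Alas2 and -1.85 ± 1.43 for Fech. For the adult globins it lay between -1.38 (Hbb-b2) and -0.96 (Hba-a2), and it was 1.39 ± 1.2 for Hbb-y, with adjusted p between 0.464 and 0.622 over the 8 members. A difference in how the stress groups compare on the slides was therefore not detectable for these genes with 14 arrays.

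Labelled female and labelled male arrays were also compared with stress group in the model. No member passed, where 29.2% of genes did (11.4% higher and 17.8% lower in labelled females), and 4425 genes but no member had an unadjusted p under 0.05. Bpgm differed by -1.26 ± 0.69 (adjusted p = 0.169), Hbb-y by -0.73 and Alas2 by -0.47, and the other 5 members by between -0.23 and 0.17. Bpgm passed without SI labelled male mouse 7 (-1.63, adjusted p = 0.023), and Hbb-y passed without SS labelled female mouse 20 (-1.30, adjusted p = 0.011).

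The members varied together from mouse to mouse. With the 4 group means removed, Pearson correlations over the 14 arrays were 1.00 for Alas2 with Fech, 0.93 for Alas2 with Bpgm, 0.95 for Alas2 with Hbb-bt and 0.99 for Hbb-b2 with Hbb-bt. These arrays share the scaling, which adds the same shift to every gene of an array, so the values describe the arrays and carry no test. Unscaled, Alas2 correlated with Fech at 1.00, with Bpgm at 0.85 and with Hbb-bt at 0.88. Hba-a2 was the exception, at -0.51 with Alas2 and -0.34 with Hba-a1 unscaled, over a range of 1.27-fold. Hbb-y correlated with the other members at between 0.43 and 0.51 scaled and between -0.18 and 0.21 unscaled.

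**Figure D4:**
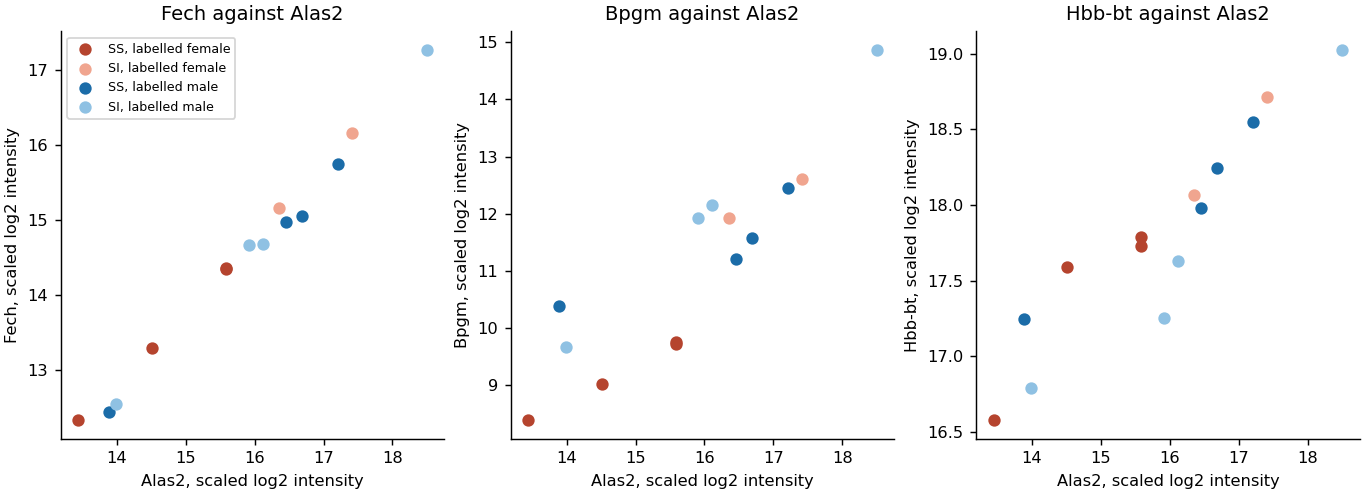
Scaled log2 intensity of Fech, Bpgm and Hbb-bt (y axes) against Alas2 (x axis) on each of the 14 arrays, coloured by group. Fech keeps a nearly constant offset from Alas2 in all groups, while the SS labelled females lie low in Bpgm for their level of Alas2, at an offset of -5.56 on average against -4.62 in SI labelled females. SS labelled male mice 1 and 2, at -5.25 and -5.12, lie within the range of the SS labelled females.

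The genes most like Alas2 over the 14 arrays were Fech (0.998), Cntn6 (0.998), Ube2l6 (0.996), Fam220a (0.996) and Stfa3 (0.992). The genes most like Hbb-bt were Hbb-b2 (0.994), Hba-a1 (0.992), Cyp2c70 (0.984), Hba-a2 (0.974) and Cryba1 (0.972). Correlations in this paragraph are of scaled levels, which share the shift of each array, unless called unscaled. Unscaled, Hbb-bt correlated with Hbb-b2 at 0.95, with Hba-a1 at 0.98 and with Hba-a2 at -0.37. Hbq1a, a theta globin, correlated with Alas2 at 0.991 and Epb41, protein 4.1 of the red cell membrane skeleton, at 0.981. Gata1, the master regulator of red cell genes that also acts in megakaryocytes, correlated with Alas2 at only 0.07, and the platelet chemokine gene Pf4 at 0.25. The housekeeping isoform Alas1, which starts heme synthesis in other cells, correlated with Alas2 at -0.74.

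Globin spots of the members took a varying share of all signal. The share was 3.22%, 3.40%, 2.01% and 3.17% in SS labelled females, against 4.10% and 5.60% in SI labelled females. In labelled males it was 3.39%, 3.57%, 2.49% and 4.37% in SS mice, against 5.30%, 3.18%, 2.69% and 2.14% in SI mice. Means were 2.95 ± 0.64% (SD, n = 4) in SS labelled females and 4.85 ± 1.06% (n = 2) in SI labelled females, and 3.45 ± 0.77% (n = 4) in SS labelled males and 3.33 ± 1.38% (n = 4) in SI labelled males. The labelled female groups did not overlap and the labelled male groups did. The share has no test here, and its divisor is the brightness of everything else on the array.

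Of 12 other globin genes, 3 were bright enough to test. The theta globins Hbq1a and Hbq1b differed by -0.83 and -1.0 between SS and SI over all mice (limma adjusted p = 0.534 and 0.449) and by -1.71 and -1.75 in labelled females (adjusted p = 0.53 and 0.51). Hbq1a averaged 8.27 ± 0.86 in SS labelled females and 9.99 ± 1.01 in SI labelled females (SD, n = 4 and 2). Cygb, a globin of connective tissue cells, differed by 0.28 over all mice (adjusted p = 0.669), but was well above background on 0 of 6 arrays labelled female and on all 8 labelled male, at least 20.5-fold lower in labelled females (measured means 1.72 and 7.08). The embryonic genes Hbb-bh1 and Hbb-bh2 were well above background on 3 arrays each and Hba-x, the brain globin gene Ngb and the muscle globin gene Mb on 0, so these were not tested.

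All 9 enzymes of the heme pathway were measured, and 0 passed in either direction between SS and SI over all mice, within labelled females or within labelled males. The unadjusted p was under 0.05 only for Alas1 and Ppox over all mice. The median difference over all mice was -0.43, beside -0.14 for all genes. Alas1 differed by -0.69 (adjusted p = 0.129) and Ppox, protoporphyrinogen oxidase, by -0.65 (adjusted p = 0.236). Urod differed by -0.43, Alad and Cpox by -0.18 each and Uros by 0.04. In labelled females, Alas2 and Fech had the lowest values of the 9 (-2.10 and -2.09), and the other 7 lay between -0.95 (Ppox) and 0.27 (Cpox). Ppox averaged 6.12 ± 0.15 in SS labelled females and 7.08 ± 0.63 in SI labelled females. Over the arrays, Alas1 and Cpox correlated with Alas2 at -0.74 and -0.52, and Ppox at 0.88. The 2nd Alas1 probe disagreed with the first in labelled males, at 6.33 in SS and 6.06 in SI mice against 8.18 in SS and 8.86 in SI mice. Cpox was the one enzyme to pass between the slides, 0.76 higher on labelled female arrays (adjusted p = 0.032).

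Of 30 measured genes of heme and iron handling, 35 being listed, 2 rose in SS over all mice and 0 fell, at a median of -0.32. Over all genes 8.61% rose, so this count is near the background and says nothing particular of the list. The heavy ferritin chain Fth1 rose by 0.67 ± 0.16 (SE, adjusted p = 0.0195), with means of 15.80 ± 0.10 in SS labelled females and 14.93 ± 0.18 in SI labelled females, and of 16.16 ± 0.26 in SS labelled males and 15.63 ± 0.34 in SI labelled males. Eif2ak1, the kinase that slows globin translation when heme is short, rose by 0.50 ± 0.14 (adjusted p = 0.043). The light ferritin chain Ftl1 differed by -0.05 (adjusted p = 0.943) and the mitochondrial iron importer Slc25a37 by -0.98 (adjusted p = 0.495). None of the 30 passed in labelled females, where Slc25a37 differed by -2.25.

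Among 20 membrane genes of the 23 listed, 4 rose and 0 fell in SS over all mice, where 8.61% of all genes rose, at a median of -0.40. The water channel Aqp1 rose by 1.54 (adjusted p = 0.005), the beta spectrin gene Sptb by 1.41 (adjusted p = 0.018), glycophorin C (Gypc) by 1.18 (adjusted p = 0.006) and Cd47, a surface protein of many cells, by 0.70 (adjusted p = 0.008). Epb41, the membrane gene most like Alas2, differed by -0.73 (adjusted p = 0.531). Aqp1 was the 1 membrane gene to pass within labelled females, 1.84 higher in SS (adjusted p = 0.041), with means of 11.43 ± 0.20 in SS and 9.59 ± 0.05 in SI mice. The structural genes Ank1 and Dmtn were well above background on 0 of 4 SS and 2 of 2 SI labelled female arrays, at least 8.05-fold and 6.35-fold lower in SS (adjusted p = 0.193 and 0.204, not past the threshold).

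Of 24 measured genes of late red cell maturation, 3 rose and 0 fell over all mice, at a median of -0.40, which is again near the 8.61% of all genes that rose. The erythropoietin receptor gene Epor rose by 1.43 (adjusted p = 0.005), catalase (Cat) by 1.16 (adjusted p = 0.020) and Nprl3 by 0.75 (adjusted p = 0.020). Mkrn1 and Tent5c, among the brightest genes of the list, differed by -0.66 and -1.05 and did not pass. In labelled females Epor rose by 1.62 (adjusted p = 0.045), and Xpo7 passed as higher in SS (adjusted p = 0.016), with measured means of 3.83 in SS and 1.67 in SI mice, near background and well above it on 2 of 4 SS and 0 of 2 SI arrays.

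Of 12 measured red cell transcription factors, 4 rose and 0 fell over all mice, beside 8.61% higher among all genes, at a median of 0.03. Gfi1b rose by 1.54 (adjusted p = 0.005), Gata1 by 1.48 (adjusted p = 0.005), Tal1 by 1.12 (adjusted p = 0.011) and Nfe2 by 1.04 (adjusted p = 0.007). All 4 factors are also known for their part in megakaryocytes. Gata1 averaged 11.09 ± 0.23 in SS labelled females and 9.33 ± 0.26 in SI labelled females, and 11.62 ± 0.34 in SS labelled males and 10.34 ± 0.79 in SI labelled males, without overlap on either slide. Lyl1 differed by -0.26 (adjusted p = 0.47). Gata1 and Gfi1b also passed within labelled females, by 1.76 and 1.84 (adjusted p = 0.036 and 0.037).

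Of 17 measured glycolysis genes of 19 listed, a pathway red cells depend on for energy, 5 rose and 0 fell over all mice (8.61% of all genes rose), at a median of -0.06. They were Hk1 (1.09, adjusted p = 0.007), Pfkm (0.87, adjusted p = 0.007), Tpi1 (0.84, adjusted p = 0.011), Aldoa (0.72, adjusted p = 0.009) and Pkm (0.70, adjusted p = 0.022). Gapdh and Ldha differed by 0.33 and -0.10 and did not pass.

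These list counts depended on the scaling and on single arrays. Without scaling, 0 genes of these lists passed over all mice, nor did any of the platelet list. With array weights, the medians of the membrane and maturation lists were 0.45 and 0.32. Without SI labelled male mouse 4, the genes that rose over all mice were the same in the factor, maturation, membrane and glycolysis lists, Abcb6 joined the iron list, and 11 genes fell: Alas1, Piezo1, Gpi1, Minpp1 and Pgam1, and 6 of the iron list. Without SI labelled male mouse 7, Ank1 and Dmtn fell, and only Fth1 of the iron list rose. Within labelled males 0 genes of any of these lists passed with all 8 arrays. Without mouse 4, 5 factors, 6 maturation genes, 5 membrane genes, 4 iron genes and 6 glycolysis genes rose there, and 2, 0, 2, 6 and 3 fell. Within labelled females, leaving out 1 array at a time gave between 0 and 4 factors, 0 and 3 maturation genes and 0 and 3 membrane genes that rose.

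**Figure D5:**
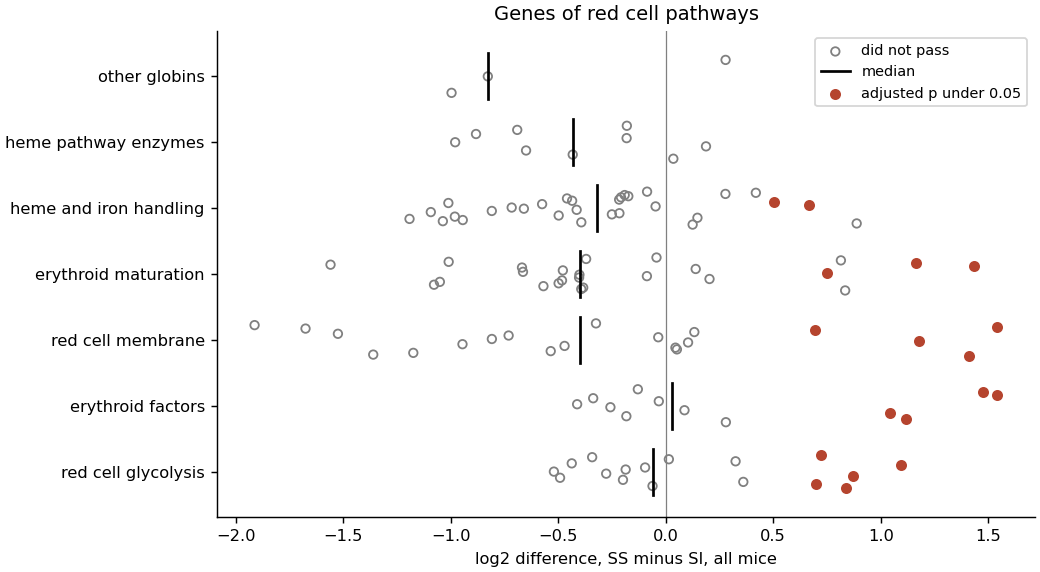
Log2 difference, SS minus SI over all mice (x axis), of each measured gene of the red cell lists (rows); filled points passed at adjusted p under 0.05 and vertical bars are list medians. All 18 genes that passed lie above 0, while the medians of 6 of the 7 lists lie below 0, at between -0.83 and -0.06.

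Among markers of other blood cells, only platelet, neutrophil and monocyte genes passed, over all mice or within labelled females, and none passed within labelled males. Genes said here to pass, rise or fall, or not to pass, are so between SS and SI. Between the slides further marker genes passed, among them 7 of the 9 measured NK cell genes, higher on labelled female arrays. Of 24 measured platelet genes, 23 rose in SS over all mice (median 1.56) and 18 in labelled females (median 1.78), with summed scaled intensities, in units of 1000, of 386 to 477 in SS labelled females, 110.0 to 141 in SI labelled females, 368 to 649.6 in SS labelled males and 89.8 to 359 in SI labelled males. Of 14 measured neutrophil genes of 16 listed, 0 passed over all mice (median -0.84) and 8 fell in SS labelled females (median -2.12), with sums of 104 to 129 in SS labelled females, 328 to 495 in SI labelled females, 172 to 193 in SS labelled males and 113 to 174 in SI labelled males. Leaving out 1 array at a time gave between 0 and 23 platelet genes higher and between 2 and 11 neutrophil genes lower in labelled females. No listed platelet or neutrophil gene with a probe was without signal on every array. Of 9 measured NK cell genes 0 passed, and all 9 had a negative difference in labelled females (median -1.15), with sums of 3.21 to 6.66 in SS and 12.9 to 13.8 in SI labelled females, and of 1.46 to 5.88 in SS and 1.36 to 7.40 in SI labelled males; Klrk1 was well above background on 0 arrays. Of 9 measured B cell genes 0 passed, at a median of 0.53 in labelled females and 0.01 over all mice, with sums of 23.0 to 30.0 in SS and 11.2 to 23.7 in SI labelled females. Of 10 measured T cell genes 0 passed, at medians of -0.54 over all mice and -0.38 in labelled females. Of 9 measured monocyte genes, F13a1, which megakaryocytes also express, rose by 1.30 over all mice (limma adjusted p = 0.007) and by 1.67 in labelled females (adjusted p = 0.041), and Nr4a1 fell by 0.88 over all mice (adjusted p = 0.022). The 3 measured genes of eosinophils, basophils and mast cells did not pass. Medians in labelled males were 1.34 for platelet, 0.25 for neutrophil and 0.03 for monocyte genes. They were -0.19 for NK cell, -0.47 for B cell and -0.71 for T cell genes there. In the interaction, 4 neutrophil genes passed, all with a lower SS minus SI difference in labelled females, where 7 of all genes passed. The member sums themselves were 564 to 1122 in SS labelled females, 1317 to 2181 in SI labelled females, 760.5 to 1811 in SS labelled males and 559 to 2840.4 in SI labelled males. The part of these marker differences in the differences of the red cell genes, through the scaling or otherwise, was not tested.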

How the data were processed

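Each array file holds fluorescence intensity per spot, as the authors deposited it: background subtracted and detrended across the slide, with no scaling between arrays. The software was Agilent Feature Extraction, version 10.7.3.1 in the headers and 9.1 in the submitters' processing notes. The flags deposited beside it, per the file headers, mark control, saturated and outlier spots and spots well above background. The authors also deposited a log2 table whose normalization no source used here gives, and it served as an alternative.

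Control spots (3671 of 62976) and outlier spots (113 to 174 per array) were left out, and log2 intensities were averaged per probe and scaled as described above. Testing required a probe to be well above background on 6 or more arrays, and a gene is its tested probe with the highest mean. Of 31063 probes with a RefSeq identifier, 26425 matched a symbol. Models used limma 3.58.1 with R 4.3.3 and data.table version 1.17.8, two-sided, with 4 groups or with slide as a block, and adjusted by Benjamini-Hochberg over 24033 probes. In data simulated for 24033 probes, log2 changes of 1 and 2 were recovered for 47% and 91% over all mice, 6% and 52% in labelled females, and 20% and 70% in labelled males. These rates are over simulated probes and were not worked out for the members. The scaled SD within groups was 1.43 for Alas2, 1.45 for Fech and 1.32 for Bpgm, beside 0.18 for Uros. Each array has its own mouse label and was treated as a separate mouse. Whether labels 1 and 01b of SS labelled males name separate animals is not stated. Members and gene lists were chosen with earlier results of these data known. Named genes are all members, all measured globins and heme enzymes, the genes of each list that passed between SS and SI, and its 3 brightest, of which some are not reported here. Alternatives covered scaling, background correction, filters, probe choice, array row and weights, and leaving out each array.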

Additional observations from a re-analysis of the deposited data

Results flagged for a closer look

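In 4 of 27 sets of 4 arrays, the farthest value stood apart from the other 3 by more than Dixon's 95% limit, which chance alone passes in about 1 of 20 sets. The sets are not independent, since the members vary together and the share is built from the globins, so the 2 rates cannot be compared. SS labelled female mouse 22 was low for Hba-a1, at 17.72 scaled log2 intensity where the other 3 SS labelled females read 18.60 each, and for Hbb-bt, at 16.58. The same mouse had the lowest share of globin signal, 2.01%, where the other 3 of its group had 3.17% to 3.40%. It was also the brightest labelled female array (0.60) and the lowest of its group in Alas2, Fech and Bpgm. Its scale shift was -0.50, against 0.18 to 0.31 in the others of its group, and gene levels were examined after scaling only. The SD of Hba-a1 within groups was 0.08 unscaled and 0.62 scaled. SS labelled female mouse 20 was high for Hbb-y, at 6.76, where the others of its group read 2.72 to 3.33, and the other Hbb-y probe read 1.77 on that array. What sets these arrays apart was not tested.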

How the results depend on the processing

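No member passed in any of the 5 comparisons as reported. With the 75th percentile over all probes, Hbb-b2, Hbb-bt and Fech differed by 0.23, 0.35 and 0.18 between labelled females and labelled males. With the median as scale, Alas2 differed by 0.0065 in labelled males. With quantile normalization, Hba-a2, Hbb-b2 and Hbb-bt differed by -0.060, -0.13 and -0.13 in labelled males, and Hba-a2 by 0.055 in labelled females with an interaction of 0.12. That method sets values by rank, and Hba-a1 ranked 1 on every array, so Hba-a1 could not differ under it. The other adult globins, also near the top ranks, had little room to differ. Without scaling, Hba-a1, Hbb-b2 and Hbb-bt differed by -0.077, -0.089 and -0.052 in labelled males and Hba-a1 and Hba-a2 by -0.19 and -0.23 between the slides, where 1 member passed, Bpgm at -1.62 (limma adjusted p = 0.008). With normexp, Hbb-y had an interaction of -0.37 and a slide difference of 0.27. In the authors' deposited log2 table, Hba-a2, Hbb-b2 and Hbb-bt differed by -0.0068, -0.020 and -0.019 in labelled males, the Hba-a2 interaction was 0.012, and Bpgm differed by -1.02 over all mice. Hba-a1 differed by 0.00 there in all 5 comparisons, as a value set by rank would. The small globin differences in that table therefore cannot be read as a lack of change.

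With array weights, Hba-a1, Hbb-b2, Hbb-bt, Alas2 and Fech differed by 0.45, 0.46, 0.43, 0.27 and 0.19 over all mice. In labelled males Alas2, Fech and Bpgm then differed by 1.26, 1.11 and 0.42, and 4 members passed, Hba-a1 and Hba-a2 at 0.88 each, Hbb-b2 at 0.96 and Hbb-bt at 0.97. Under the same weights 1 member passed in the interaction, Hba-a2 at -1.37, and 1 between the slides, Bpgm at -1.80 with Hba-a1 at -0.075 and Hba-a2 at -0.15. The cause of these reversals was not tested.

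Leaving out each array in turn, members that passed numbered 0 to 1 over all mice, in labelled males, in labelled females and between the slides, and 0 in the interaction. Over all mice, differences ranged from -0.26 to 0.13 for Hba-a1 and from -0.40 to 0.052 for Hbb-bt. In labelled males they ranged from -0.78 to 0.72 for Alas2, -0.99 to 0.59 for Fech, -1.58 to 0.16 for Bpgm and -0.012 to 0.77 for Hbb-b2. Between the slides they ranged from -0.048 to 0.33 for Hba-a1, -0.074 to 0.26 for Hba-a2, -0.44 to 0.044 for Hbb-b2, -0.30 to 0.14 for Hbb-bt and -0.59 to 0.070 for Fech. Bpgm kept a negative difference over all mice (-2.22 to -1.25) and in labelled females (-3.39 to -2.70).

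Probes that passed over all mice numbered 1918, 0 without scaling, 1252 with normexp, 1125 with no filter on dim probes, 10656 with array weights and 3864 without SI labelled male mouse 4. In labelled males they numbered 0, up to 14038 over the settings and 9424 without that mouse. In labelled females they numbered 962, and 52 to 1397 over the settings. Leaving out 1 array gave 43 without SS labelled female mouse 23, 54 without SI labelled female mouse 28, 84, 98 and 194 without SS labelled female mice 20, 21 and 22, and 183 without SI labelled female mouse 27. It gave 482, 517 and 565 without SS labelled male mice 2 and 01b and SI labelled male mouse 5, and 1919 without SI labelled male mouse 4. The settings for the gene lists were chosen after seeing the data. No paired analysis was possible because no mouse number is shared between the groups compared. Hbb-y, near background, has no value in the deposited table's complete rows or under the filter on all arrays.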
